A study of Homo sapiens with 9 samples.

Results

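The ABC transporter family was taken as every gene whose annotated symbol is ABC, a letter from A to G and a number. On the arrays used here 42 such genes had a probe set annotated to that gene alone, of 19775 genes with such a probe set, and they were covered by 96 probe sets. A further 4 family symbols of the RefSeq gene table were not analysed here. Probe sets were tested where the signal exceeded the median of the array on 3 or more of the 9 arrays, and each gene was represented by its brightest such probe set. That left 30 ABC genes of 13056 tested genes, and the other 12 lay below the filter.

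The arrays measured total RNA of HepG2, a human liver cancer line in which much of the hepatocyte programme is still active. Cells carried small interfering RNAs, which degrade matching messenger RNA, against HNF4alpha and HNF4gamma together. The groups are knockdown1, knockdown2 and control, with 3 arrays each. What sets knockdown1 apart from knockdown2, the treatment of the control cells and the time after transfection are not in the labels. Nor is it stated there whether arrays of a group stem from separate cultures, and p-values therefore reflect only the spread among these arrays, which may be technical.

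ABC proteins bind ATP with a conserved cassette and most use it to move a substrate across a membrane. In hepatocytes, members at the bile canaliculus secrete phospholipid, sterols, conjugated bilirubin and drugs into bile, members of the basolateral membrane return organic anions to blood, and others load lipid onto nascent high-density lipoprotein. Further members work inside mitochondria, lysosomes and peroxisomes, and subfamilies E and F have no membrane part and act in translation. HNF4alpha is a nuclear receptor that drives many hepatocyte genes, and HNF4gamma is its close relative.

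Signals are the authors' MAS5 values, a linear and relative measure that Affymetrix software computes per probe set, and were scaled here to a common array median of 14.1. The deposited arrays already shared a trimmed mean of 100.0, so this is a further scaling on top of that one. A log2 fold change is the difference in mean log2(signal + 1.41), which understates the change of dim genes, and only values of the same probe set are compared. Differences were tested with limma over all 13056 genes, two-sided, and a gene is said to rise or fall when its Benjamini-Hochberg adjusted p was under 0.05. Array medians as deposited ran from 12.3 to 15.7, and log2 values correlated at 0.973 to 0.978 within groups and 0.931 to 0.953 between groups, across genes that are not independent replicates. The knockdown check rests on HNF4G, the gene of HNF4gamma, whose signals were 14.4, 23.5 and 17.4 in knockdown1, 41.9, 24.4 and 28.6 in knockdown2 and 45.2, 47.9 and 44.9 in control. It fell in knockdown1, with -1.28 (SE 0.28, adjusted p = 5.38e-04), while knockdown2 gave -0.56 (SE 0.28, adjusted p = 0.142). A dimmer HNF4G probe set, kept through its control arrays alone, was lower in both, at 29.1 ± 8.11 (SD, n = 3) in control, 6.33 ± 5.63 (SD, n = 3) in knockdown1 and 5.72 ± 6.60 (SD, n = 3) in knockdown2 (adjusted p = 0.0258 and 0.0148 over all kept probe sets). The filter thus favoured a probe set high in control, and these p-values add no independent support to the knockdown check. The level of HNF4alpha's gene was not analysed here. All 10 hepatocyte and HepG2 markers were tested, with albumin (ALB) at 2197, 1895 and 2138 in knockdown1, knockdown2 and control. Of these, 3 fell in knockdown1 (TF, TTR and FGB) and 3 in knockdown2 (TF, TTR and EPCAM), EPCAM rose in knockdown1 (0.41 against -1.02 in knockdown2), and ALB, AFP, APOB, SERPINA1, KRT8 and KRT18 passed in neither. Of 14 annotated markers of leukocytes, endothelium and fibroblasts 6 were tested. PTPRC, CD3E, CDH5, VWF, KDR, PDGFRA, LUM and COL3A1 lay below the filter, PECAM1 was higher in both knockdowns (0.49 and 0.69), CD14 exceeded the median on its control arrays alone (31.9, 21.6 and 16.7), which is how it entered the test, and their part in the results was not tested. In such bulk RNA a change in the share of cells that express a gene cannot be told apart from a change per cell.

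In knockdown1 against control, 8 of the 30 tested ABC genes fell and 4 rose, where 19.0% of all tested genes fell, 14.3% rose and 33.3% did either. In knockdown2, 11 fell and 3 rose, beside 13.9% and 13.7% of all tested genes, 27.6% together. The median log2 fold change of the 30 genes was -0.15 in knockdown1 and -0.24 in knockdown2, against -0.01 and 0.01 over all tested genes. Averaged over both knockdowns, 11 fell and 4 rose, with 17.9% and 14.7% of all genes, 32.6% together, as background. The average includes genes called in 1 knockdown alone, ABCC2, ABCB10 and ABCF2 in knockdown1 and ABCG5, ABCC5 and ABCC11 in knockdown2. Its calls of ABCG5 and ABCF2 were lost in 10 of 19 alternatives each, and that of ABCC11 in 7 of 18. By the arrays alone, every knockdown1 array lay below every control array in 10 of the 30 genes and above in 6, beside 21.7% and 18.1% of all genes. In knockdown2 these counts were 12 and 3, beside 19.8% and 19.9%, and for all 6 knockdown arrays 8 and 3, beside 11.2% and 9.76%. The 4 rises in knockdown1 became 1 without control replicate 1 and 2 without control replicate 2, beside 11.7% of all tested genes in each case. With the values as deposited, on the authors' scaling alone, 8 fell and 6 rose in knockdown1, and over all genes 2628 fell and 3105 rose in place of 2485 and 1866. With the 6 knockdown arrays treated as 1 group, 6 fell and 3 rose, beside 8.92% and 7.97% of all tested genes. The genes that rose in either knockdown were ABCC1, ABCD3, ABCE1 and ABCF2. All 3 comparisons with control share the same 3 control arrays, so the values of both knockdowns are given side by side and are not independent of each other.

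**Figure D1:**
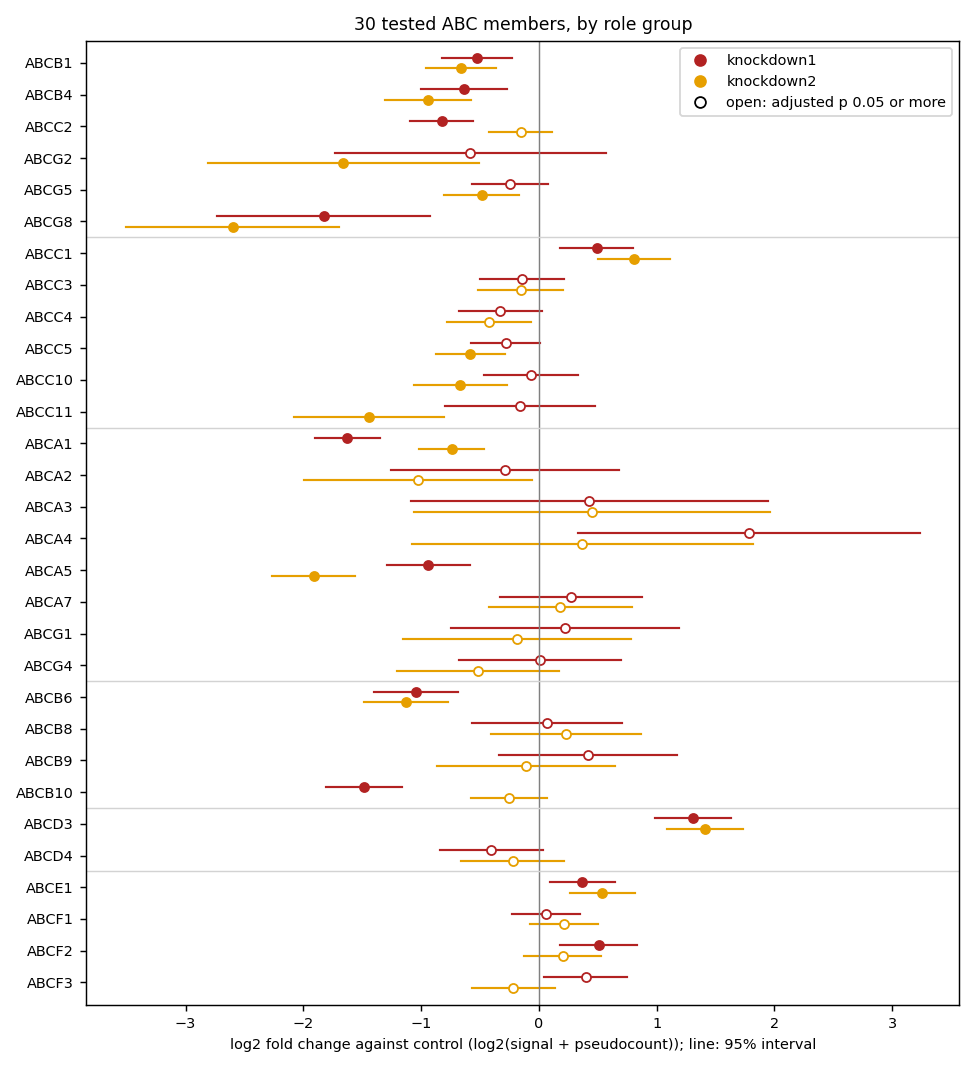
Log2 fold change against control of the 30 tested ABC genes in knockdown1 (red) and knockdown2 (orange), with 95% intervals from the limma fit, ordered by role group from canalicular pumps at the top to subfamilies E and F at the bottom. Filled points passed the test; ABCG8 and ABCA5 lie farthest to the left in knockdown2, and ABCD3 lies right of 0.98 with its whole interval in both.

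Among the 6 tested pumps of the bile canaliculus and of drug efflux, 4 fell in knockdown1 and 5 in knockdown2, and none rose in either. ABCG8 and ABCG2, which are in the knockdown2 count, lay below the array median on every knockdown2 array, so that the filter favoured their falls. Of all tested genes 19.0% fell in knockdown1 and 13.9% in knockdown2. The median log2 fold change of the 6 was -0.61 in knockdown1 and -0.80 in knockdown2, against -0.01 and 0.01 over all genes. The largest fall was that of ABCG8, which pairs with ABCG5 to secrete cholesterol and plant sterols into bile. ABCG8 signals were 54.4, 36.3 and 47.1 in control, 8.08, 18.2 and 10.9 in knockdown1 and 4.56, 11.5 and 4.52 in knockdown2. Every knockdown array lay below every control array. ABCG8 fell in both knockdowns, with -1.83 (SE 0.44, adjusted p = 0.00173) in knockdown1 and -2.60 (SE 0.44, adjusted p = 4.41e-05) in knockdown2. It exceeded the array median on 4 arrays, the 3 controls among them, so that the filter favoured a gene high in control. With a pseudocount equal to that median the log2 fold changes were -1.19 and -1.52.

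ABCG5, the partner subunit, gave 164 ± 20.6 (SD, n = 3) in control, 138 ± 12.7 (SD, n = 3) in knockdown1 and 116 ± 8.43 (SD, n = 3) in knockdown2. It fell in knockdown2, with -0.49 (SE 0.16, adjusted p = 0.02), while knockdown1 gave -0.24 (SE 0.16, adjusted p = 0.252). The knockdown2 call ended without control replicate 3 (-0.39, adjusted p = 0.0540) and without knockdown2 replicate 1 (-0.43, adjusted p = 0.104). Each gene has 1 probe set here, and the difference between the 2 genes in their size of change was not tested.

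ABCG5 and ABCG8 lie head to head on chromosome 2, which is why their shared promoter is shown. In the RefSeq promoter table (build GRCh38.p14), which takes 250 bases before and 50 bases from each listed start, the starts used here lie 132 bases apart on opposite strands. Their windows share 231 bases. The RefSeq gene table extends ABCG5 to base 43839231, past the ABCG8 start at 43838971, so the 132 bases hold for the listed starts used here. The ABCG8 window (chr2:43838721-43839020, plus strand) is printed 5′ to 3′, with the stretch from the ABCG5 start to the ABCG8 start in capitals.
ABCG8: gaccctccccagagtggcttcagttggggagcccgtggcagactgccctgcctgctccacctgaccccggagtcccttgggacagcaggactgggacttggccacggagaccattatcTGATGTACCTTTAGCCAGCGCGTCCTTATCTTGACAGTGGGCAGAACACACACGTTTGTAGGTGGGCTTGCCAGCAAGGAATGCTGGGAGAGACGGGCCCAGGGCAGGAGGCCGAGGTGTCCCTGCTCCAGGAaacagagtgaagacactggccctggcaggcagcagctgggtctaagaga
The window was searched on both strands for CAAAGNNCA, a core of HNF4 sites, and for CAAAGTCCA, an HNF4 site that the core also matches. Neither occurred in the ABCG8 or ABCG5 window.

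ABCB4 moves phosphatidylcholine into bile, and its signals were 128, 118 and 134 in control, 66.2, 77.3 and 104 in knockdown1 and 64.1, 59.8 and 72.9 in knockdown2. The control arrays lay above all knockdown arrays. ABCB4 fell in both knockdowns, with -0.64 (SE 0.18, adjusted p = 0.00624) in knockdown1 and -0.94 (SE 0.18, adjusted p = 1.81e-04) in knockdown2, and the knockdown1 call ended without knockdown1 replicate 1 (-0.49, adjusted p = 0.0556). Its neighbour ABCB1, which encodes the drug pump P-glycoprotein, went from 807 ± 142 (SD, n = 3) in control to 557 ± 55.1 (SD, n = 3) in knockdown1 and 505 ± 15.0 (SD, n = 3) in knockdown2. ABCB1 fell in both, with -0.52 (SE 0.15, adjusted p = 0.00584) and -0.66 (SE 0.15, adjusted p = 9.26e-04) in turn. A further, dimmer ABCB1 probe set gave -0.23 (adjusted p = 0.404) in knockdown1 and -0.78 (adjusted p = 0.00399) in knockdown2, over all kept probe sets. It was higher in knockdown1 than in knockdown2 by 0.55 (adjusted p = 0.0369). ABCB1 and ABCB4 are close paralogs, so probe sets of each may pick up the other, and their values are uncertain to that extent.

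ABCC2, which exports conjugated bilirubin and other organic anions into bile, was the canalicular gene called between the knockdowns by its brightest probe set on the scaling used here. The dimmer ABCB1 probe set passed there as well. With the values as deposited ABCB1, ABCB4 and ABCG5 were also called, higher in knockdown1 than in knockdown2. Under quantile normalization ABCB1 and ABCG5 were. The ABCC2 values follow. ABCC2 signals were 2281, 1979 and 2089 in control, 1090.1, 1139 and 1367 in knockdown1 and 1901, 1812 and 1997 in knockdown2. Knockdown1 lay below both other groups, which overlapped each other. ABCC2 fell in knockdown1, with -0.82 (SE 0.13, adjusted p = 1.18e-05), and knockdown2 gave -0.15 (SE 0.13, adjusted p = 0.441), with a 95% interval of -0.42 to 0.12. Knockdown1 was lower than knockdown2, with a difference of -0.67 (SE 0.13, adjusted p = 2.37e-04).

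The ABCC2 promoter is shown because it was the one member window with more than 1 match to the HNF4 core. The window (chr10:99782390-99782689, plus strand, RefSeq, GRCh38.p14) has both matches in capitals, which read as the core on the minus strand.
ABCC2: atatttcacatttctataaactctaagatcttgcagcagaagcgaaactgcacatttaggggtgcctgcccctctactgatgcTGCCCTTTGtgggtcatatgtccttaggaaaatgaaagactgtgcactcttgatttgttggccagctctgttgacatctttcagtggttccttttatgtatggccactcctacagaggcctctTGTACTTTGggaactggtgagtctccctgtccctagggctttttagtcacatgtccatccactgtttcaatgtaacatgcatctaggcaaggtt
The matches lie at bases -167 to -159 and -44 to -36 from the start. The core occurred in 4 of the 49 windows listed for 33 of the ABC genes, and in 5.28% of all 35116 promoter windows. A match is a run of letters and not a measured binding site.

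ABCG2, a pump for urate and drugs, was dim, with signals of 21.1, 16.4 and 18.9 in control, 16.3, 6.83 and 15.1 in knockdown1 and 4.35, 3.11 and 8.42 in knockdown2. The knockdown2 arrays were all lower than the control arrays. ABCG2 exceeded the array median on 5 arrays, with the 3 controls among them and no knockdown2 array. The filter thus favoured a gene high in control. ABCG2 fell in knockdown2, with -1.66 (SE 0.56, adjusted p = 0.0265). That call was lost without control replicate 1, 2 or 3 and without knockdown2 replicate 1 or 2 (adjusted p = 0.104, 0.0503, 0.0642, 0.0572 and 0.0818 in turn, values from -1.75 to -1.42), and the value was -0.77 with a pseudocount equal to the median. ABCB11, the bile salt export pump, lay below the array median on every array, with signals of 2.07 to 9.71.

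**Figure D2:**
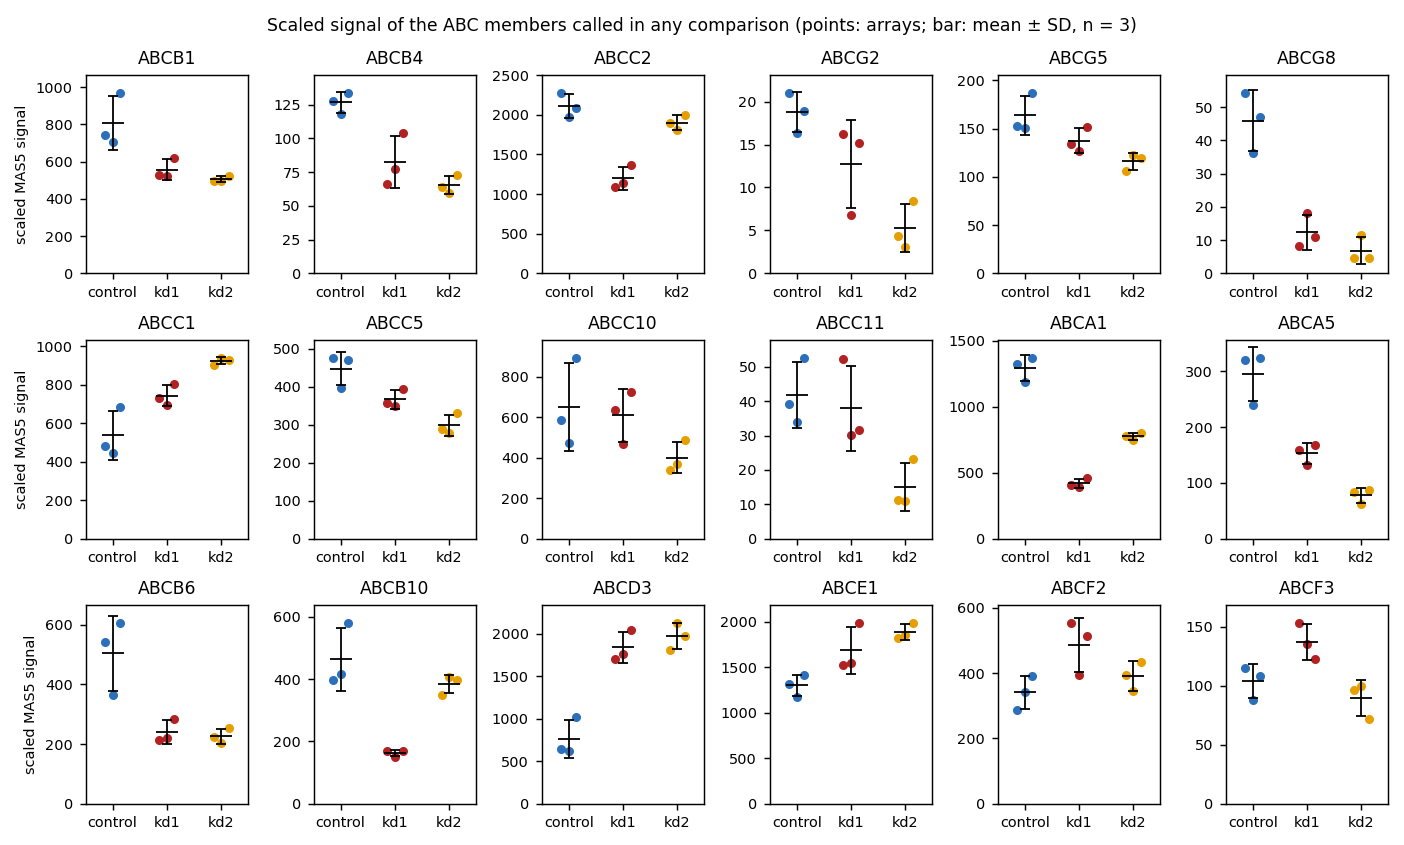
Scaled MAS5 signal on a linear axis from 0 for the 18 ABC genes called in at least 1 comparison, with 1 panel per gene, points for the 3 arrays of each group (kd1 is knockdown1, kd2 is knockdown2) and bars for the mean and SD. ABCA1 falls in steps from control to knockdown2 to knockdown1, ABCA5 in the other order, and ABCB10 is low in knockdown1 alone.

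Of the 6 tested basolateral and other exporters of the ABCC subfamily, 1 rose and none fell in knockdown1, and 3 fell and 1 rose in knockdown2. Over all tested genes 19.0% fell and 14.3% rose in knockdown1, and 13.9% fell and 13.7% rose in knockdown2. The medians of the 6 exporters were -0.15 and -0.50, beside the -0.01 and 0.01 of all genes. ABCC1, which exports glutathione conjugates and leukotriene C4, rose. Its signals were 481, 446 and 683 in control, 729.9, 696 and 801 in knockdown1 and 904, 939.8 and 929 in knockdown2. The groups did not overlap, with control lowest and knockdown2 highest. ABCC1 rose by 0.49 (SE 0.15, adjusted p = 0.0122) in knockdown1 and by 0.81 (SE 0.15, adjusted p = 1.46e-04) in knockdown2. In knockdown1 it missed the threshold when control replicate 1 was left out, at 0.42 with an adjusted p of 0.0772, and when control replicate 2 was, at 0.37 with an adjusted p of 0.0525. A limma fit without a variance trend missed it there as well (adjusted p = 0.0577).

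ABCC5, an exporter of cyclic nucleotides, had signals of 476, 397 and 469.9 in control, 356, 350.2 and 395 in knockdown1 and 287, 279 and 329.9 in knockdown2. The groups did not overlap, with control highest and knockdown2 lowest. ABCC5 fell in knockdown2, with -0.58 (SE 0.14, adjusted p = 0.00294), and gave -0.28 (SE 0.14, adjusted p = 0.141) in knockdown1. A further probe set of ABCC5 gave -0.01 in knockdown2, and the mean over its 3 kept probe sets missed the threshold there (-0.37, adjusted p = 0.0827). ABCC11, an exporter known for its part in earwax type, had signals of 39.0, 34.0 and 52.6 in control, 52.2, 30.1 and 31.5 in knockdown1 and 11.2, 11.0 and 23.1 in knockdown2. Knockdown2 lay below both other groups. ABCC11 fell in knockdown2, with -1.44 (SE 0.31, adjusted p = 7.34e-04), and in knockdown1 the value was -0.16 (SE 0.31, adjusted p = 0.742). Its dimmer probe set gave 0.01 in knockdown2, and the mean of both missed the threshold (-0.72, adjusted p = 0.132).

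ABCC10, an exporter of drugs and lipophilic anions, had signals of 586, 471 and 894 in control, 636, 466 and 726 in knockdown1 and 341, 370.2 and 486 in knockdown2. All 3 groups overlapped, and control replicate 3 was the highest array. ABCC10 fell in knockdown2, with -0.67 (SE 0.19, adjusted p = 0.00971). The threshold was missed without control replicate 3 (-0.41, adjusted p = 0.0709), without knockdown2 replicate 1 (-0.56, adjusted p = 0.0537) and with the mean over its probe sets (-0.46, adjusted p = 0.0511). A limma fit without a variance trend missed it too (adjusted p = 0.108). ABCC3 and ABCC4, basolateral exporters of bile acids and glucuronides, did not pass the test on the main settings. ABCC3 gave -0.14 in knockdown1 and -0.15 in knockdown2, with 95% intervals of -0.50 to 0.21 and -0.51 to 0.21. ABCC4 gave -0.33 (SE 0.17, adjusted p = 0.159) and -0.42 (SE 0.17, adjusted p = 0.0721) in turn. ABCC4 was called lower in knockdown2 on the authors' scaling alone, under quantile normalization and under a stricter filter. So it was with a replicate block and without control replicate 2. With the mean over its kept probe sets ABCC3 was called higher in knockdown2. That mean includes a dim probe set kept through knockdown arrays, so that the filter favoured a rise.

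Among the 8 tested lipid and sterol transporters, ABCA1 and ABCA5 fell in both knockdowns and no other gene passed. For comparison, 19.0% of all tested genes fell in knockdown1 and 13.9% in knockdown2. The medians of the 8 were 0.12 in knockdown1 and -0.35 in knockdown2. ABCA1 passes cholesterol and phospholipid to apolipoprotein A-I, the first step of high-density lipoprotein formation. Its signals were 1328, 1186 and 1372 in control, 404, 394 and 459 in knockdown1 and 775, 748 and 802 in knockdown2. The 3 groups were separate, with knockdown1 lowest. ABCA1 fell in both knockdowns, with -1.63 (SE 0.13, adjusted p = 1.65e-10) in knockdown1 and -0.74 (SE 0.13, adjusted p = 1.12e-04) in knockdown2, and knockdown1 was lower than knockdown2, with a difference of -0.89 (SE 0.13, adjusted p = 9.06e-06). Its further kept probe set gave -1.52 and -0.46.

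The ABCA1 promoter is shown as that of the gene with the smallest adjusted p in knockdown1 among the members. In the window (chr9:104928106-104928405, minus strand, RefSeq, GRCh38.p14) capitals mark an E-box, CACGTG, at -147 to -142 and a TATA box, TATAAA, at -31 to -26.
ABCA1: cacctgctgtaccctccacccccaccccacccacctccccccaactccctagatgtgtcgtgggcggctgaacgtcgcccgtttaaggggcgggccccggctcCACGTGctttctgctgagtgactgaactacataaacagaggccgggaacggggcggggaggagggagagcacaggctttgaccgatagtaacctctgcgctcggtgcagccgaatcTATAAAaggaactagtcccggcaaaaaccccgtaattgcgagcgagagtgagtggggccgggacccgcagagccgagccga
Searched on both strands, an E-box occurred in 9 of the 49 member windows and in 7.26% of all windows, and a TATA box in 7 of 49 and in 11.5%. The window held no match to either run of HNF4 letters.

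ABCA5, a lipid transporter of endosomes and lysosomes, changed more in knockdown2. Its signals were 321, 239 and 324 in control, 158, 131 and 169 in knockdown1 and 83.7, 61.8 and 87.3 in knockdown2. The 3 groups were separate here too, with knockdown2 lowest. ABCA5 fell in both knockdowns, with -0.94 (SE 0.17, adjusted p = 8.55e-05) in knockdown1 and -1.91 (SE 0.17, adjusted p = 1.52e-09) in knockdown2, and knockdown1 was higher than knockdown2 by 0.97 (SE 0.17, adjusted p = 7.39e-05). In the genome ABCA5 stands in a row with its relatives ABCA6, ABCA8 and ABCA9, which lay below the filter.

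The other 6 tested lipid transporters were dim. ABCA4, the retinoid transporter of photoreceptors, gave signals of 3.07, 6.51 and 4.24 in control, 29.4, 25.0 and 8.67 in knockdown1 and 4.35, 14.3 and 3.37 in knockdown2. Its knockdown1 arrays were all higher than control, and the value of 1.79 (SE 0.71, adjusted p = 0.0524) missed the threshold. ABCA4 exceeded the array median on 3 arrays, all of them knockdown arrays, so that the filter favoured a gene high there. It passed on the authors' scaling alone, under quantile normalization and without a variance trend, among other alternatives. Given how it entered the test, neither its size nor these calls are support for a rise. ABCG1, which exports cholesterol to mature lipoproteins, gave 0.22 and -0.18, with 95% intervals of -0.75 to 1.19 and -1.15 to 0.79. For ABCA2, ABCA3, ABCA7 and ABCG4 the values ran from -0.28 to 0.43 in knockdown1 and from -1.03 to 0.45 in knockdown2.

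In subfamily B, ABCB6 and ABCB10 act in heme metabolism and both fell in knockdown1, ABCB6 also in knockdown2. ABCB6, a porphyrin transporter of mitochondria and lysosomes, had signals of 543, 364 and 605 in control, 214, 220.2 and 285 in knockdown1 and 222, 203 and 254 in knockdown2. Every knockdown array was lower than every control array, and the knockdowns overlapped. ABCB6 fell in both knockdowns, with -1.05 (SE 0.17, adjusted p = 2.38e-05) in knockdown1 and -1.12 (SE 0.17, adjusted p = 1.25e-05) in knockdown2. ABCB10, a transporter of the inner mitochondrial membrane needed for heme synthesis, had signals of 397, 416 and 581 in control, 169.9, 150.3 and 169 in knockdown1 and 350.4, 406 and 398 in knockdown2. Knockdown1 stood apart below both other groups. ABCB10 fell in knockdown1, with -1.48 (SE 0.16, adjusted p = 1.64e-08), gave -0.25 (SE 0.16, adjusted p = 0.256) in knockdown2, and was lower in knockdown1 than in knockdown2, with a difference of -1.23 (SE 0.16, adjusted p = 6.36e-07). On the authors' scaling alone and under quantile normalization ABCB10 also passed in knockdown2. ABCB8 and ABCB9 did not pass in any comparison, with values from -0.11 to 0.42 against control and of -0.16 and 0.53 between the knockdowns.

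Of the 2 tested members of subfamily D, ABCD3 rose and ABCD4 did not pass. ABCD3 encodes the peroxisomal membrane protein that imports long branched fatty acids and precursors of bile acids. Its signals were 638, 620.3 and 1020.1 in control, 1704, 1761 and 2047 in knockdown1 and 1813, 2125 and 1978 in knockdown2. Every knockdown array was higher than every control array, and control replicate 3 was the highest of the controls. ABCD3 rose by 1.31 (SE 0.16, adjusted p = 1.62e-07) in knockdown1 and by 1.41 (SE 0.16, adjusted p = 7.55e-08) in knockdown2. A further probe set gave 1.27 and 1.04. ABCD4, which acts in lysosomal export of cobalamin, gave -0.40 (SE 0.21, adjusted p = 0.153) and -0.22 (SE 0.21, adjusted p = 0.494).

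The ABCD3 promoter is shown because it was the window of a gene that rose in both knockdowns and matched the HNF4 core. The window (chr1:94418139-94418438, plus strand, RefSeq, GRCh38.p14) has the match, at -91 to -83, in capitals.
ABCD3: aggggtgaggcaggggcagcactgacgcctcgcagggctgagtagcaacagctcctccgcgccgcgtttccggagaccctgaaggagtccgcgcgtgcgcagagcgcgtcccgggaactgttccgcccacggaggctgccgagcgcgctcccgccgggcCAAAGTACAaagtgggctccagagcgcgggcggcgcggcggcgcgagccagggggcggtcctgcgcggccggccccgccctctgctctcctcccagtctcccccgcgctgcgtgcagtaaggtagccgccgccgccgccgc
The other windows with the core belonged to ABCC2, ABCC10 and ABCD2, so the letters occurred in a gene that rose, in ABCC2 and ABCC10, which fell in 1 knockdown each, and in ABCD2, which lay below the filter.

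Among the 4 members of subfamilies E and F, 2 rose in knockdown1 and 1 in knockdown2, where 14.3% and 13.7% of all tested genes rose. ABCE1, which splits ribosomes for reuse after translation, had signals of 1313, 1172 and 1412 in control, 1521, 1548 and 1985 in knockdown1 and 1816, 1857 and 1982 in knockdown2. All knockdown arrays were higher than the controls. ABCE1 rose by 0.54 (SE 0.14, adjusted p = 0.0031) in knockdown2 and by 0.37 (SE 0.14, adjusted p = 0.0358) in knockdown1. The knockdown1 call was lost without control replicate 1 or 2, without knockdown1 replicate 3 or without knockdown2 replicate 1, 2 or 3 (adjusted p = 0.0897, 0.0918, 0.155, 0.0555, 0.0579 and 0.0578 in turn), with the lowest value, 0.24, without knockdown1 replicate 3. That call was also lost without a variance trend (adjusted p = 0.0908) and without the filter (adjusted p = 0.0659).

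ABCF2, a cytosolic member of little known function, had signals of 289, 342 and 392 in control, 554, 394 and 514 in knockdown1 and 394, 345 and 436 in knockdown2. Knockdown1 lay just above control, and knockdown2 overlapped it. ABCF2 rose in knockdown1 by 0.51 (SE 0.16, adjusted p = 0.0136) and gave 0.20 (SE 0.16, adjusted p = 0.384) in knockdown2. The call ended without control replicate 1 (0.40, adjusted p = 0.112), knockdown1 replicate 1 (0.41, adjusted p = 0.0952) or knockdown1 replicate 3 (0.46, adjusted p = 0.0546). Without a variance trend it ended too (adjusted p = 0.0622). The 3 further kept probe sets of ABCF2 gave 0.60, 0.10 and -0.19 in knockdown1, and their mean with the brightest one, 0.26, did not pass (adjusted p = 0.237). ABCF1, which binds an initiation factor of translation, gave 0.06 and 0.22, with 95% intervals of -0.22 to 0.35 and -0.07 to 0.50.

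Compared directly, knockdown1 was lower than knockdown2 in 3 of the 30 genes and higher in 4, where 16.1% and 10.5% of all tested genes were called, 26.6% together. All arrays of knockdown1 lay below those of knockdown2 in 4 of the 30 genes and above them in 7, beside 24.8% and 18.9% of all genes. The lower genes were ABCC2, ABCA1 and ABCB10, and the higher ones ABCA5, ABCC10, ABCC11 and ABCF3. ABCC11 was higher in knockdown1 by 1.29 (SE 0.31, adjusted p = 0.00239) and ABCC10 by 0.60 (SE 0.19, adjusted p = 0.0203). The ABCC11 difference was 0.62 with the mean over its probe sets, which did not pass (adjusted p = 0.206), and it was 0.83 when the pseudocount was raised to the array median. The ABCC10 call was lost without knockdown1 replicate 1 or 3 or knockdown2 replicate 1 or 2 (adjusted p = 0.0745, 0.135, 0.0965 and 0.0660). It was also lost without a variance trend (adjusted p = 0.146) and without the filter (adjusted p = 0.071). ABCF3, a further cytosolic member, had signals of 115, 87.7 and 108 in control, 153, 135 and 123 in knockdown1 and 96.7, 99.8 and 71.8 in knockdown2. On the main settings it did not pass against control in either knockdown or in their mean. It was called higher in knockdown1 with the values as deposited, under quantile normalization and with a replicate block. Between the knockdowns, knockdown1 was higher than knockdown2 by 0.61 (SE 0.17, adjusted p = 0.00823). That call ended without knockdown1 replicate 1 (0.53, adjusted p = 0.0524) or knockdown2 replicate 3 (0.47, adjusted p = 0.0867). Without knockdown1 replicate 1 the count of higher genes was 2, beside 8.25% of all tested genes. With the values as deposited, which moved the median of all genes in this comparison from -0.03 to 0.08, the split was 3 lower and 9 higher, and over all genes 2104 lower and 2803 higher in place of 2105 and 1368.

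**Figure D3:**
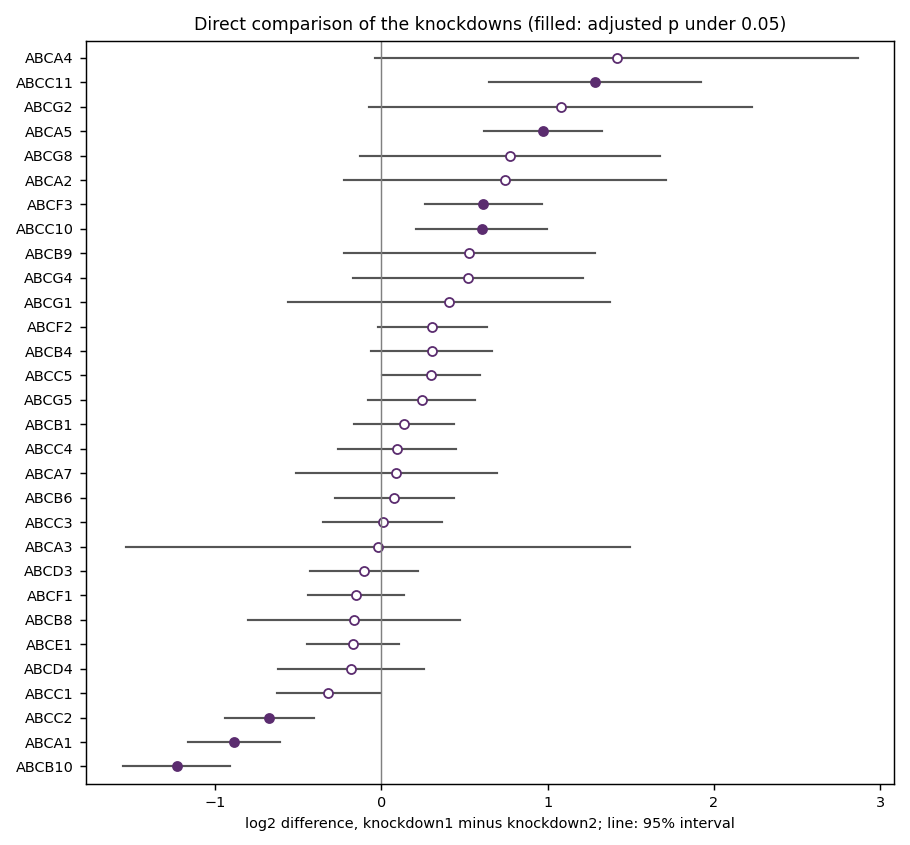
Log2 difference of knockdown1 minus knockdown2 for the 30 tested ABC genes, sorted, with 95% intervals and filled points for the 7 genes that passed. ABCB10 lies lowest at -1.23, followed by ABCA1 at -0.89, and the highest value of a gene that passed is that of ABCC11 at 1.29.

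Further probe sets allowed a check of single genes. For genes called in knockdown1, 8 of 9 further kept probe sets had the sign of the brightest, and in knockdown2 9 of 10 did. Over both knockdowns 9 of 12 did, and between the knockdowns 2 of 3. The exceptions were probe sets of ABCF2, ABCC11 and ABCC5, and no opposite value passed the test. These counts are of sign alone, so the -0.01 of ABCC5 in knockdown2 counts as the same. Not every probe set with the same sign passed. The further probe set of ABCB4 lay below the array median on every knockdown2 array. The probe sets of ABCC3 differed. Its brightest probe set gave -0.15 in knockdown2, and its dimmest kept one, with 3.82 ± 2.28 (SD, n = 3) in control and 21.1 ± 4.10 (SD, n = 3) in knockdown2, was higher there. That probe set lay below the array median in control and was kept through knockdown arrays, where it is high, so no size is given for it.

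**Figure D4:**
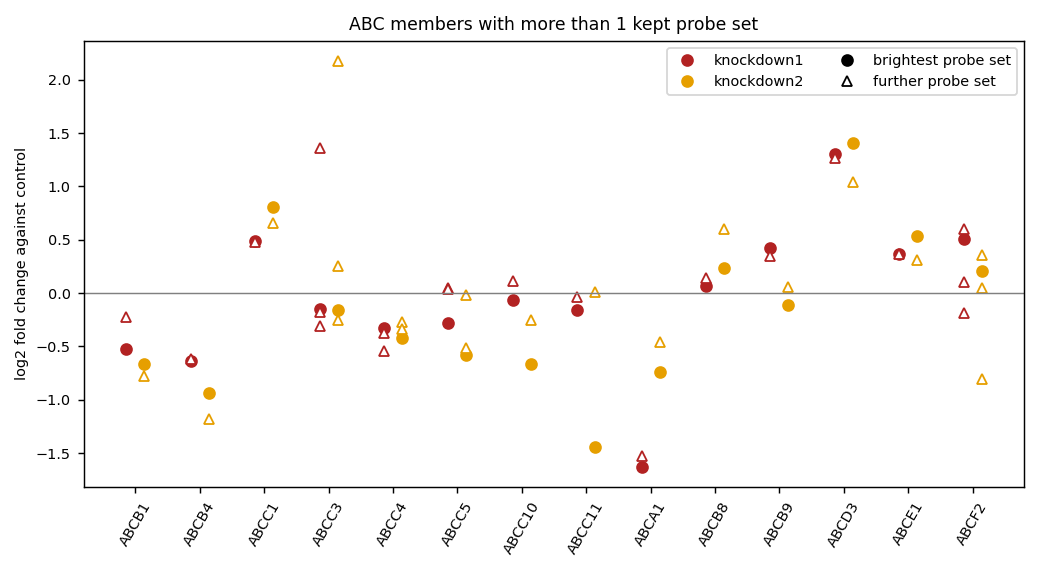
Log2 fold change against control of every kept probe set for the 14 ABC genes with more than 1, in knockdown1 (red) and knockdown2 (orange). Filled circles are the brightest probe set, used in all counts, and open triangles the others; those of ABCC1, ABCA1 and ABCD3 stay on the side of their circle. The topmost triangle is the dim probe set of ABCC3.

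The 12 members below the filter were ABCB11, ABCC8, ABCC9, ABCC12, ABCC13, ABCA6, ABCA8, ABCA9, ABCA12, ABCA13, ABCB5 and ABCD2. Their brightest probe sets ran from 0.23 to 15.0 over the arrays, and 11 of the 12 never exceeded the array median. ABCC8 and ABCC9, the regulators of ATP-sensitive potassium channels, were both among them, so that group had no tested member. ABCA6 was called lower in knockdown2 when the filter was dropped, with signals of 3.58, 5.69 and 9.29 in control and 0.52, 1.04 and 1.68 in knockdown2, too dim for a size to be given. Values this low allow no statement on whether the other 11 changed.

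The genes that work with these transporters were read from lists chosen with the members. Their counts over both knockdowns can include a gene called in 1 knockdown alone, such as APOE, with -0.72 in knockdown1 and 0.07 in knockdown2. In the list of nuclear receptors and other regulators, 7 of 13 tested genes fell and 3 rose over both knockdowns, where 17.9% of all tested genes fell and 14.7% rose. The median of the 13 was -0.40, against -0.01 over all genes. PPARG, a lipid-sensing receptor, rose by 1.09 (SE 0.20, adjusted p = 1.16e-04), and NR5A2, a receptor of bile acid and sterol metabolism, fell with -0.94 (SE 0.14, adjusted p = 3.11e-06). Of 8 tested carriers of bile acids and organic ions, 4 fell and 1 rose over both knockdowns, beside the same 17.9% and 14.7%, with a median of -0.98. The largest falls were those of the organic anion carrier SLCO2B1 (-3.28, SE 0.23, adjusted p = 7.87e-12), of SLC47A1, which extrudes cations (-2.37, SE 0.15, adjusted p = 1.62e-12), and of SLC22A9 (-1.34, SE 0.20, adjusted p = 5.46e-06).

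Among 13 tested partners of sterol efflux, 8 fell and 2 rose over both knockdowns, beside 17.9% and 14.7% of all genes, with a median of -0.45. LCAT, which esterifies the cholesterol that ABCA1 delivers, fell with -1.29 (SE 0.17, adjusted p = 5.92e-07), APOM fell with -1.21 (SE 0.13, adjusted p = 3.16e-08), and MYLIP, a ligase that degrades the low-density lipoprotein receptor, rose by 1.21 (SE 0.14, adjusted p = 1.28e-07). Of 11 tested genes of the canalicular scaffold and of apical trafficking, 5 fell and 3 rose over both knockdowns, beside 17.9% and 14.7% of all genes. Their median of -0.01 was that of all genes. NHERF1 and PDZK1 tether apical transporters, and MYO5B is the motor that carries vesicles to the canaliculus. PDZK1 went from 277 ± 131 (SD, n = 3) in control to 57.9 ± 9.42 (SD, n = 3) in knockdown1 and 28.6 ± 9.96 (SD, n = 3) in knockdown2. Over both knockdowns PDZK1 fell with -2.66 (SE 0.22, adjusted p = 1.60e-10), NHERF1 with -1.62 (SE 0.13, adjusted p = 1.64e-10) and MYO5B with -1.56 (SE 0.14, adjusted p = 2.02e-09).

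Around ABCD3, which rose, 4 of 8 tested peroxisome partners fell and 1 rose over both knockdowns, beside 17.9% and 14.7% of all genes, with a median of -0.27. SLC27A2, which activates very long fatty acids and bile acid precursors, fell with -1.65 (SE 0.15, adjusted p = 1.34e-09), ACAA1, the last enzyme of peroxisomal oxidation, with -1.40 (SE 0.14, adjusted p = 3.90e-09), and HSD17B4, the enzyme before it, with -0.86 (SE 0.13, adjusted p = 1.17e-05). The ABC proteins whose symbols fall outside the rule, TAP1, TAP2 and CFTR, held no call against control. TAP1 and TAP2, which load antigen peptides, gave -0.03 and -0.13 over both knockdowns, and CFTR lay below the filter.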

How the data were processed

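Total RNA of 9 HepG2 samples was isolated with Isogen, copied from an oligo(dT) primer, transcribed in vitro with biotin and put on 1-colour Affymetrix arrays, per the labels' protocols. The deposited values are linear intensity values, made by the authors with MAS5 per the submitters' processing notes; its version and settings are not given in the sources used here, and no scanner files or detection calls were used. Of 54675 probe sets, 41091 with a single annotated gene were kept as candidates. The deposited arrays already shared a trimmed mean of 100.0; each was scaled further to the common median, values were transformed as log2(signal + 1.41), probe sets above the array median in at least 3 arrays were kept, and the brightest per gene was used.

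One limma model (version 3.58.1, R 4.3.3) with a variance trend was fitted to all groups and 13056 genes, with Benjamini-Hochberg adjustment in each comparison. In simulated data 67, 67 and 66 genes were changed 1.5-fold, 2-fold and 4-fold in knockdown1. The model recovered 17.9%, 55.2% and 87.9% of them, with 10 false calls. The simulation held far fewer changed genes than were called in the data. A gene that was not called may still have changed. The precision is limited by the 3 arrays per group. Alternatives were other scaling, pseudocounts, filters, probe set rules, a fit without a variance trend, a replicate block, pooled knockdowns and leaving out each array. The members and lists were chosen with earlier results of these data known. Arrays were assigned to groups from the labels. Genes given array by array were the called members with the largest changes in each role group; partner lists name up to 3 called genes each, and ABCA4, ABCA6, CD14 and ACAA1 are given by array outside that rule, chosen after their values were seen. Promoters come from the RefSeq table of GRCh38.p14.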

Additional observations from a re-analysis of the deposited data

Results flagged for a closer look

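The effects of knockdown1 and knockdown2, each against the same control arrays, differed by the direct test in 7 of the 30 ABC genes. Over all tested genes 26.6% differed. Among the partner genes named above for their change over both knockdowns, 5 differed. Further genes of the partner lists also passed and are not followed here, RXRB among them (1.03, SE 0.15, adjusted p = 5.43e-06). Knockdown1 was lower in ABCB10 (-1.23, SE 0.16, adjusted p = 6.36e-07), ABCA1 (-0.89, SE 0.13, adjusted p = 9.06e-06) and ABCC2 (-0.67, SE 0.13, adjusted p = 2.37e-04). It was higher in ABCC11 (1.29, SE 0.31, adjusted p = 0.00239), ABCA5 (0.97, SE 0.17, adjusted p = 7.39e-05), ABCF3 (0.61, SE 0.17, adjusted p = 0.00823) and ABCC10 (0.60, SE 0.19, adjusted p = 0.0203). The ABCC11 difference was 0.62 with the mean over its probe sets (adjusted p = 0.206) and 0.83 when the pseudocount was raised to the array median. Adjusted p-values are those of limma over all tested genes. ABCA1 and ABCA5 both fell in both knockdowns, in opposite order of size.

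Of the partner genes, PPARG (-0.88, SE 0.23, adjusted p = 0.00523) and APOM (-0.63, SE 0.15, adjusted p = 0.0023) were lower in knockdown1 than in knockdown2. ACAA1 (1.59, SE 0.16, adjusted p = 6.87e-09), PDZK1 (1.03, SE 0.25, adjusted p = 0.00245) and SLC47A1 (0.60, SE 0.17, adjusted p = 0.0094) were higher. Without a variance trend PDZK1 (adjusted p = 0.0635) and SLC47A1 (adjusted p = 0.0634) missed the threshold, and SLC47A1 also did without knockdown1 replicate 3 (0.44, adjusted p = 0.0830). ACAA1 signals were 844, 684 and 1072 in control, 618, 501 and 563 in knockdown1 and 189, 182 and 185 in knockdown2, so that its 3 groups were separate. The labels do not give how the knockdowns differ, and the cause of these differences was not tested.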

How the results depend on the processing

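Of 1766 values of 33 named genes under 19 alternative settings, 1685 kept direction and call, 81 kept the direction but lost the call, and none reversed. The ABC genes higher in knockdown1 than in knockdown2 numbered 9 with the values as deposited and 8 after quantile normalization, against 4. Of all tested genes 21.5% and 21.2% were higher there, against 10.5%. The rises in knockdown1 against control numbered 2 without a variance trend, against 4, and the falls over both knockdowns numbered 6 with the knockdown arrays pooled, against 11. Of all tested genes 11.9% rose without a variance trend, against 14.3%, and 8.92% fell with the arrays pooled, against 17.9%. Leaving out 1 array at a time gave 7 to 10 falls and 1 to 4 rises in knockdown1, 8 to 12 falls and 3 to 4 rises in knockdown2, and 8 to 13 falls and 3 to 4 rises over both. For knockdown1 against knockdown2 it gave 3 to 4 lower and 2 to 4 higher genes. Of all tested genes, 16% to 22.8% fell and 10.7% to 19.4% rose in knockdown1. In knockdown2 10.9% to 17.3% fell and 10.6% to 19.7% rose. Over both 14.3% to 21.6% fell and 11.3% to 20.1% rose. Between the knockdowns 12.8% to 19.3% were lower and 7.52% to 13.1% higher. The causes were not tested.

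Whether the replicate numbers pair the arrays was not settled. Same-numbered deviations from group means correlated at -0.0249 to 0.134. Over all genes, a fit with a replicate block called 2797 falls and 2199 rises in knockdown1 against control, in place of 2485 and 1866. With the replicate block, 8 members fell and 6 rose in knockdown1, 12 fell and 3 rose in knockdown2, 3 were lower and 4 higher in knockdown1 than in knockdown2, and 13 fell and 4 rose over both, with no member call lost. Of all tested genes 21.4% fell and 16.8% rose in knockdown1, and 16.3% fell and 16.3% rose in knockdown2. Between the knockdowns 19% were lower and 12.7% higher, and over both 20.3% fell and 17.3% rose. Without the filter all 42 members were tested, and under the stricter filter 21. Dim genes such as ABCG2 and ABCA4 carry the largest errors, and MAS5 gives no depth.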
